A study of Mus musculus with 8 samples.

Results

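The miR-148 family of microRNAs (miRNAs), which includes miR-152, was examined in the lungs of mouse dams that had been instilled with carbon black nanoparticles during pregnancy. The family was taken as the 3 array features named exactly mmu-miR-148a, mmu-miR-148b and mmu-miR-152, of 611 mouse miRNAs on the array, and all 3 were detected on all 8 arrays. The mice were female C57BL/6 (Bom Tac) animals. Controls (4 arrays) received vehicle, nanopure water, and the exposed group (4 arrays) received Printex 90, a commercial carbon black, in that vehicle. The particles were instilled into the trachea as 4 doses of 0.067 mg, on days 7 and 10 and again on days 15 and 18 of gestation, a cumulative 0.268 mg. Lungs were taken at weaning, 26 to 27 days after exposure. Both groups share the pregnancy, the strain and the sex. Whether every array came from its own mouse is not stated, so errors measure the spread between these samples, which may be technical. The family was chosen by shared seed with results of these arrays known, and the measured value behind the choice was the group comparison itself, in which miR-148a had the third-smallest limma p of the 268 miRNAs tested between the groups. The differences between groups are therefore described here and not tested.

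miRNAs repress messenger RNAs that pair with their seed, bases 2 to 8 counted from the 5′ end. The family is known for repressing DNA methyltransferases, Dnmt1 for miR-148a and miR-152 and Dnmt3b for the miR-148 members. In dendritic cells it is known for repressing Camk2a, a kinase that promotes antigen presentation on MHC class II, and in human cells it targets HLA-G. In the liver, miR-148a is known as a repressor of the LDL receptor.

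The mature sequences are shown because the shared seed defines the family, and to show how few bases differ between the members, which the array lists as 3 features. All 3 array names matched an entry of the RefSeq table (GRCm38.p6), each the 3′ arm of its hairpin, and capitals mark the seed.
miR-148a: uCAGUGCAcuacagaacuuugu
miR-148b: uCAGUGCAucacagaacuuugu
miR-152: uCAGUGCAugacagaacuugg

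All 3 seeds read CAGUGCA. Of 1679 mature mouse miRNA names in that table, 3 held these letters at bases 2 to 8, the members themselves. Over the 21 positions that all members have, 18 were identical in all, including the first 8. Outside the seed, miR-148b differs from miR-148a by C9U and U10C. miR-152 differs from miR-148a by C9U, U10G and U20G and is 1 base shorter. miR-152 differs from miR-148b by C10G and U20G. In each token the base of the miRNA named last comes first, and positions count from 1 at the 5′ end. The probe sequences were not used here, so whether probes of 1 member also bind another was not tested.

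The members come from 3 chromosomes. The mature miR-148a lies at chr6:51269829-51269850 on the minus strand, within the span of the gene model Gm38821. miR-148b lies at chr15:103285185-103285206 on the plus strand, within the span of Copz1. miR-152 lies at chr11:96850439-96850459 on the plus strand, within the span of Copz2. Copz1 and Copz2 are paralogs that encode zeta subunits of the COPI vesicle coat. The annotation used gives gene spans without exons, so exon or intron positions are not stated.

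The member with the largest difference between the groups was miR-148a, which had higher signals after Printex 90. miR-148b and miR-152 had nearly the same mean in both groups. Each signal was divided by its own array's 75th percentile, taken over the 240 mouse miRNAs that all arrays detected, so a signal of 1 equals that percentile. Signals of different miRNAs come from different probes, so levels are compared only within a miRNA. The arrays held 248 to 283 detected mouse miRNAs and 75th percentiles of 580.8 to 804.7 intensity units, with the lowest of both on Printex 90 replicate 3. Without that array the log2 difference of miR-148a was 0.20, as with it.

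miR-148a, the repressor of Dnmt1 and of the LDL receptor, measured 0.536, 0.575, 0.509 and 0.543 in vehicle control replicates 1 to 4. It measured 0.613, 0.68, 0.616 and 0.575 in Printex 90 replicates 1 to 4. The groups met at 1 point, where vehicle control replicate 2 stood at 57.51% of the percentile signal and Printex 90 replicate 4 at 57.47%. The other 3 Printex 90 arrays lay above all controls. The means were 0.621 ± 0.0436 after Printex 90 and 0.541 ± 0.0273 in controls (SD, n = 4 each). The log2 difference was 0.20 (SE 0.06), a 1.15-fold higher signal, against a median log2 difference of -0.05 over the 268 tested miRNAs.

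miR-148b measured 0.144, 0.148, 0.142 and 0.145 in the 4 controls and 0.131, 0.155, 0.152 and 0.148 after Printex 90. Printex 90 replicate 1 was the lowest of all arrays and replicate 2 the highest, so the controls lay inside the range of the exposed group. The means were 0.147 ± 0.0107 and 0.145 ± 0.00241 (SD, n = 4 each), with a log2 difference of 0.01 (SE 0.054), less than the spread between arrays.

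miR-152, which shares Dnmt1 as a known target with miR-148a, measured 0.56, 0.543, 0.535 and 0.551 in controls and 0.514, 0.55, 0.585 and 0.514 after Printex 90. The exposed arrays fell on both sides of the controls, with replicates 1 and 4 below and replicate 3 above all of them. The means were 0.541 ± 0.0341 and 0.547 ± 0.0107 (SD, n = 4 each), with a log2 difference of -0.02 (SE 0.047).

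**Figure D1:**
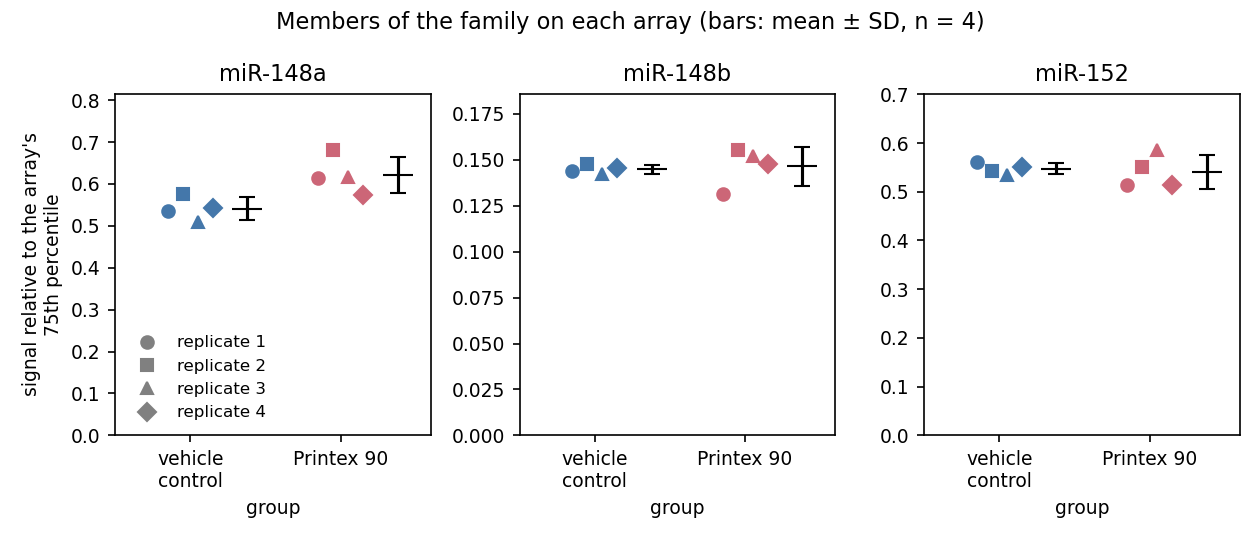
Signal of miR-148a, miR-148b and miR-152 on each of the 8 arrays (y axis, relative to the array's 75th percentile, from 0), by group, with a marker per replicate number and black bars for mean ± SD of 4 arrays. The Printex 90 arrays of miR-148a sit between 0.575 and 0.68 and the controls between 0.509 and 0.575. Those of miR-148b and miR-152 spread to both sides of their controls.

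With limma 0 of the 268 tested miRNAs passed an adjusted p of 0.05 (0%), and so 0 of the 3 members. At an unadjusted limma p under 0.05 there were 15 (5.6%), and miR-148a was the 1 member among these. With no scaling between arrays 0 members were among them, as the log2 difference of miR-148a was 0.13 with an SE of 0.126. Groups that did not overlap made up 1.49% of the tested miRNAs and 0 of the members. As this contrast entered the choice of the family, nothing is read from these counts. In bulk lung, a changed signal from a changed number of cells of a type and from changed RNA per cell cannot be told apart. The controls filled row 1 of the slide and the exposed samples row 2, and an effect of the row cannot be told apart from one of the group.

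Each member was measured by 2 probes of 10 spots, whose signals were summed. The probes are thus parts of the values above, from the same arrays. For miR-148a both probes were higher after Printex 90, in the contrast that entered the choice of the family. Probe A_54_P1273 measured 0.236, 0.257, 0.224 and 0.244 in controls and 0.269, 0.308, 0.278 and 0.258 after Printex 90. Probe A_54_P1274 measured 0.3, 0.318, 0.285 and 0.299 in controls and 0.344, 0.372, 0.339 and 0.317 after Printex 90. In both probes Printex 90 replicate 2 was the highest array and vehicle control replicate 3 the lowest, and Printex 90 replicate 4 the lowest of its group. Their log2 differences were 0.21 (SE 0.069) and 0.19 (SE 0.057).

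The 2 probes of miR-152 gave log2 differences of -0.04 (SE 0.046) and -0.01 (SE 0.051). Those of miR-148b gave -0.03 (SE 0.092) for the dimmer probe, A_54_P1381, and 0.02 (SE 0.053) for A_54_P1382. On the dimmer probe as few as 30% of spots were well above background on an array, Printex 90 replicate 1, and its spots varied by a median coefficient of variation of 14.8%. The other 5 probes of the family had all kept spots well above background on all arrays, with median coefficients of variation from 4.29% to 5.58%. The median over all detected mouse probes was 6.37%.

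**Figure D2:**
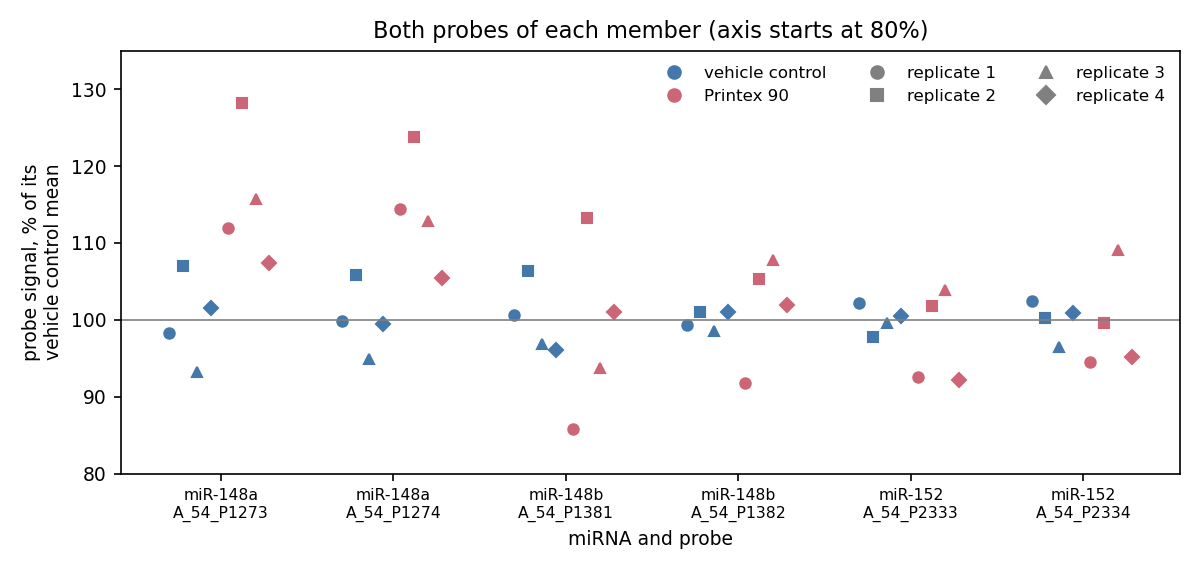
Signal of both probes of each member on each array as a percent of that probe's mean over the 4 vehicle controls (y axis, starting at 80%), coloured by group, with a marker per replicate. Both miR-148a probes have Printex 90 replicate 2 highest, at 128.2% and 123.8%, while the probes of miR-148b and miR-152 scatter on both sides of 100%.

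The standard error of a member's signal on 1 array, from its spots, had a median of 1.06% for miR-148a (0.638% to 1.5%), 1.18% for miR-152 (0.777% to 1.51%) and 1.58% for miR-148b (0.929% to 2.69%). Between the arrays of a group, miR-148a had a coefficient of variation of 5.05% in controls and 7.02% after Printex 90. For miR-148b it was 1.66% and 7.27%, and for miR-152 1.96% and 6.31%. Within groups, the log2 SD was 0.0875 for miR-148a, 0.0784 for miR-148b and 0.0667 for miR-152, where the median of the 240 miRNAs was 0.123. From the lowest to the highest of the 8 arrays, miR-148a varied 1.34-fold, miR-148b 1.18-fold and miR-152 1.14-fold (median of the 240 miRNAs, 1.31-fold).

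Ratios of 2 members within an array do not depend on the percentile each array is divided by, though quantile normalization can change them. The log2 ratio of miR-148a over miR-152 was -0.06, 0.08, -0.07 and -0.02 in controls and 0.26, 0.31, 0.08 and 0.16 after Printex 90. Its mean moved from -0.02 ± 0.07 to 0.20 ± 0.10 (SD, n = 4 each), a shift of 0.22. Vehicle control replicate 2 (0.083) and Printex 90 replicate 3 (0.076) overlapped. The log2 ratio of miR-148a over miR-148b was 1.90, 1.96, 1.84 and 1.90 in controls and 2.225, 2.13, 2.02 and 1.96 after Printex 90, a shift of 0.18. Here Printex 90 replicate 4 (1.958) and vehicle control replicate 2 (1.959) met. The ratio of miR-152 over miR-148b was 1.92 ± 0.04 in controls and 1.88 ± 0.08 after Printex 90, a shift of -0.03. These ratios come from the contrast that entered the choice of the family and are given as a description.

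**Figure D3:**
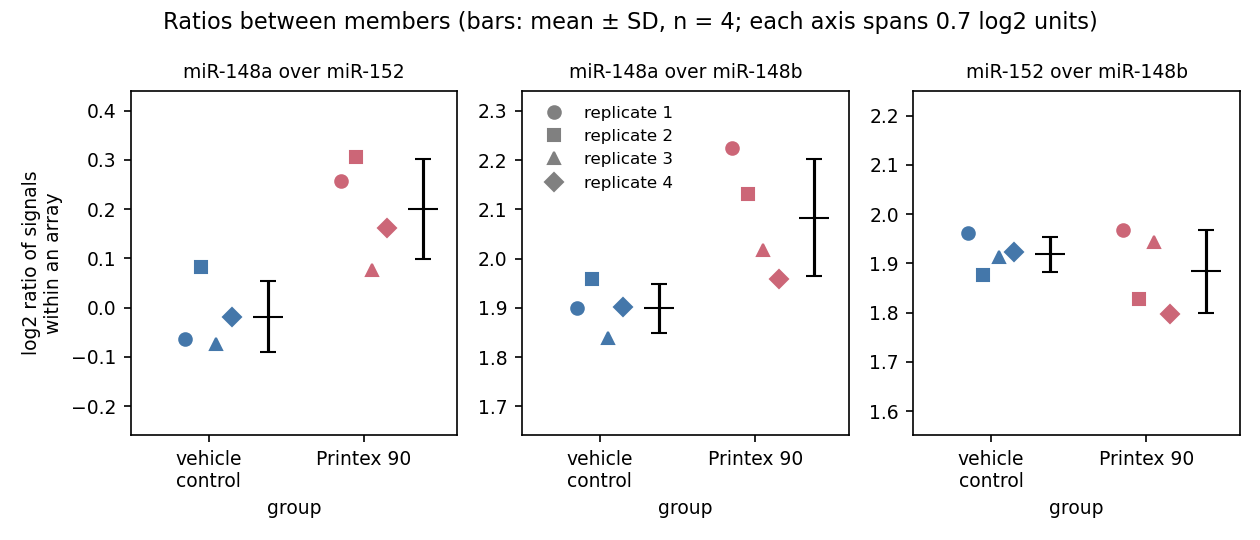
Log2 ratio of 2 members' signals within each array (y axis, each panel spanning the same width), by group, with a marker per replicate and bars for mean ± SD of 4 arrays. The 2 ratios with miR-148a on top shift up by 0.22 and 0.18 after Printex 90, and the ratio of miR-152 over miR-148b by -0.03.

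The log2 difference of miR-148a kept its direction over the processing steps tried and each array left out. Those of miR-148b and miR-152 did not. All settings reuse the arrays of the contrast that entered the choice of the family, so they are a description. Of the 17 alternatives, the replicate block and the doubled floor could not move these differences, the block because the design is balanced and the floor because the members lie above it. Over the 17 the log2 difference of miR-148a was above 0 in all, lowest at 0.13 with no scaling and highest at 0.26 with quantile normalization. That of miR-148b ran from -0.06 to 0.08, below 0 in 4 of 17, and that of miR-152 from -0.09 to 0.045, below 0 in 12 of 17. Without scaling the median of all tested miRNAs was -0.12, and relative to it miR-148a stood at 0.24, miR-148b at 0.06 and miR-152 at 0.03. Before scaling, the signals of miR-148a were 373.3 ± 48.3 intensity units in controls and 408.3 ± 57.1 after Printex 90 (SD, n = 4 each), and the groups overlapped (319.6 to 436.9 and 358 to 490 units).

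**Figure D4:**
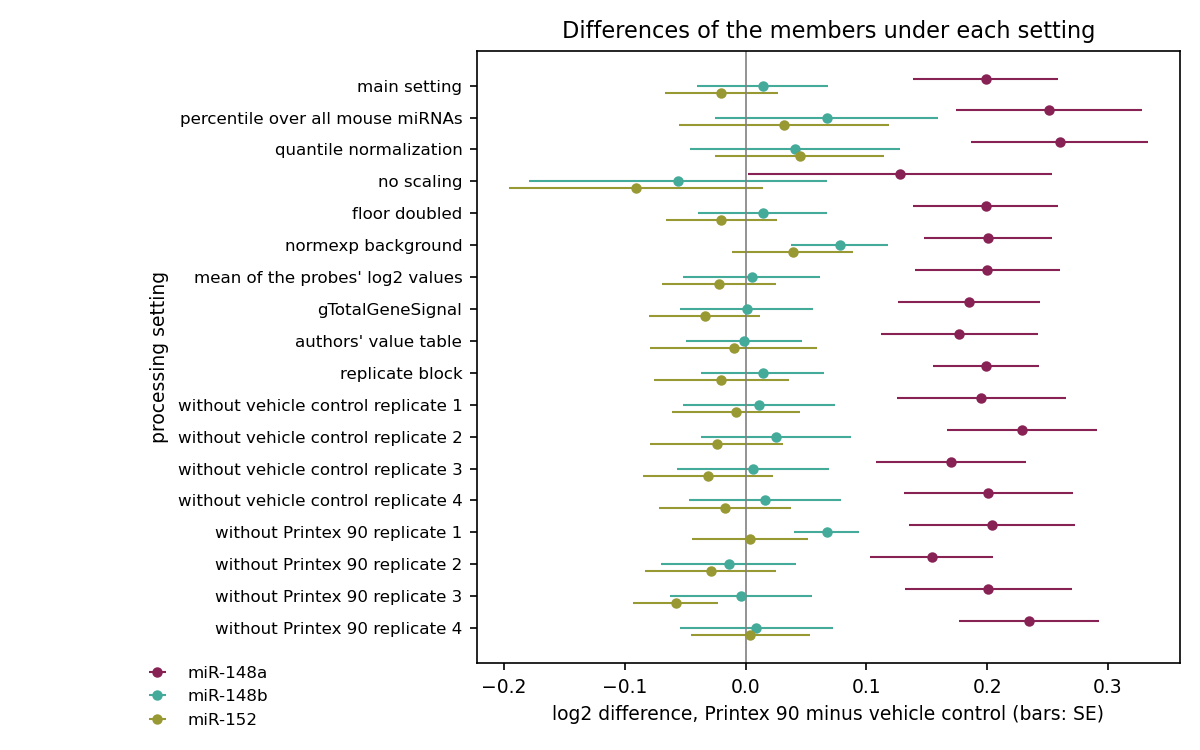
Log2 difference, Printex 90 minus vehicle control (x axis; bars are the SE of the fit), of miR-148a, miR-148b and miR-152 under the main setting and 17 alternatives (y axis). miR-148a lies between 0.13 and 0.26 in all of them, and the other two lie on both sides of 0.

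With the main scaling no pair of members had a correlation across arrays that passed an adjusted p of 0.05, and other scalings changed this. Each test pooled both groups. For pairs with miR-148a it therefore held the group difference that entered the choice of the family, and no relation is read from its p. miR-152 with miR-148b passed with the percentile over all mouse miRNAs (r = 0.88, exact permutation adjusted p = 0.0211), with no scaling (r = 0.93, adjusted p = 0.000967) and in the authors' table (r = 0.88, adjusted p = 0.00938). miR-148a with miR-148b passed with no scaling (r = 0.75, exact permutation adjusted p = 0.0477). Without scaling, all signals also follow their array's brightness, with 75th percentiles of 580.8 to 804.7 intensity units. No relation between members can therefore be read from r with no scaling. Other miRNAs were not compared under the settings where pairs passed, so whether a high r there is particular to the family was not tested. With the main scaling the median r with the 239 others was -0.126 for miR-148a, 0.057 for miR-148b and 0.246 for miR-152. With the main scaling, over the 8 arrays, the log2 signals of miR-152 and miR-148b had Pearson r = 0.58 (exact permutation p = 0.13, adjusted p = 0.389 over the 3 pairs, 2-sided) and Spearman rho = 0.48 (exact permutation p = 0.243, adjusted p = 0.365). Without the 2 arrays farthest from the median of miR-152, Printex 90 replicates 3 and 1, r fell to -0.001. For miR-148a and miR-148b, r was 0.33 (exact permutation p = 0.436, adjusted p = 0.654) and rho 0.64 (exact permutation p = 0.0962, adjusted p = 0.289), and r was -0.18 without Printex 90 replicate 2 and vehicle control replicate 3. For miR-148a and miR-152, r was 0.09 (exact permutation p = 0.839, adjusted p = 0.839) and rho 0.07 (exact permutation p = 0.882, adjusted p = 0.882), and r was -0.10 without the same 2 arrays. As deviations from the group means, r was 0.61, 0.40 and 0.37 for these pairs in turn, which was not tested. Groups of 4 arrays are too few for a correlation within each.

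The r of miR-148a with miR-148b depended on single arrays. Without Printex 90 replicate 1, which had the lowest miR-148b, r was 0.99 (exact permutation adjusted p = 0.000595). That p is the smallest that 7 arrays and 3 pairs can give. Without Printex 90 replicate 2, which had the highest miR-148a, r was -0.05. Leaving out arrays was added after the data were seen. The adjustment covers the 3 pairs and not the choice of the array. Both groups are pooled, so r also holds the group difference that entered the choice of the family. No relation is therefore read from this p.

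The miRNAs whose log2 signals most resembled each member over the 8 arrays were taken among the 239 others detected on all arrays, by Pearson r as a description. The arrays share their scaling, and r can follow it. miR-148a was most like miR-425 (r = 0.865), miR-21, a miRNA induced in injured and inflamed tissue (r = 0.83), and miR-674* (r = 0.77). With quantile normalization these were 0.86, 0.63 and 0.78. As deviations from the group means r was 0.72 for miR-425, 0.43 for miR-21 and 0.64 for miR-674*. miR-425 measured 0.147, 0.149, 0.143 and 0.146 in controls and 0.148, 0.164, 0.152 and 0.154 after Printex 90, with Printex 90 replicate 2 the highest array for it as for miR-148a.

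miR-148b was most like miR-301a (r = 0.92), miR-34a, a target of p53 (r = 0.88), and let-7i (r = 0.845). With quantile normalization these were 0.89, 0.69 and 0.03. Printex 90 replicate 1 was the lowest array for miR-148b and also for miR-301a, miR-34a and let-7i. Their r without that array was not computed. miR-152 was most like miR-98, of the let-7 family (r = 0.98), miR-22 (r = 0.96) and let-7a (r = 0.955), and with quantile normalization these were 0.99, -0.40 and 0.02. Likeness to miR-22, let-7i and let-7a therefore depended on the scaling, and r was at least 0.767 under both for miR-98, miR-301a, miR-425 and miR-674*. By this measure the family's own members were not the closest. Among 239 miRNAs, miR-148b ranked 31 and miR-152 ranked 65 for miR-148a, against 13 and 23 with quantile normalization. For miR-148b, miR-152 ranked 34 and miR-148a 85, against 22 and 45. For miR-152, miR-148b ranked 77 and miR-148a 136, against 44 and 72.

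The opposite strand of the miR-148a hairpin, miR-148a*, was on the array and was detected on 0 of 8 arrays, with signals from -0.0122 to -0.000298 relative to the percentile. It was therefore not well above background in either group.

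The 7 letters of the family seed also open other mouse miRNAs, shifted by 1 base to bases 1 to 7. RefSeq lists 7 mature names with them there, of which miR-130a, miR-130b, miR-301a and miR-721 were matched on the array. The seed of miR-130a and miR-301a, bases 2 to 8, therefore leaves out the first of these letters and takes in the base that follows them. These sequences are shown for the shift, with the shared letters in capitals.
miR-130a: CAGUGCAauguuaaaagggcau
miR-301a: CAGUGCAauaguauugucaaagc

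miR-130a measured 3.32 ± 0.118 after Printex 90 and 3.33 ± 0.0352 in controls (SD, n = 4 each), and miR-301a 0.289 ± 0.0247 and 0.282 ± 0.0106. Their log2 differences were -0.01 (SE 0.03) and 0.03 (SE 0.067). miR-130b was detected on 4 of 8 arrays and lay near the floor, and miR-721 was detected on 0 of 8 arrays. miR-301b is also an array name but had no matched RefSeq entry, so it was not checked for these letters.

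Other miRNAs reported to repress Dnmt1, Dnmt3a or Dnmt3b formed a list of 10, all tested, with 0 past an adjusted limma p of 0.05 in either direction, as for all tested miRNAs (0%). In the exposed group 2 of them were higher and 8 lower, and their median log2 difference was -0.04. Of all 268, 85 were higher and 176 were lower, and the median was -0.05. The lowest was miR-185 at -0.15 (SE 0.078), with 0.197 ± 0.0192 after Printex 90 and 0.218 ± 0.0125 in controls. The highest was miR-140 at 0.05 (SE 0.13). miR-29a, miR-29b and miR-29c, known repressors of Dnmt3a and Dnmt3b, differed by -0.02, 0.02 and -0.03, less than their spread between arrays. miR-101a, known to target Dnmt3a, measured 1.70 ± 0.0973 after Printex 90 and 1.84 ± 0.0784 in controls (log2 difference -0.12, SE 0.05), and miR-101b differed by -0.09 (SE 0.037). Of the 10, miR-101b was the 1 with an unadjusted limma p under 0.05, where all 268 tested held 15 (5.6%). miR-126-3p (-0.10), miR-143 (-0.04) and miR-342-3p (-0.02) completed the list.

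The lung markers stood beside these results as follows. All 5 epithelial miRNAs of the miR-200 family were detected on all arrays and were higher after Printex 90 by 0.04 to 0.10 (SEs 0.059 to 0.076). Of these, 0 had an unadjusted limma p under 0.05. Their summed signals were 7.65 to 9.14 against 7.32 to 8.17. The endothelial miR-126-3p and miR-126-5p differed by -0.10 (SE 0.079) and -0.20 (SE 0.11) (summed 34.4 to 42.3 against 37.3 to 43). Of 5 leukocyte miRNAs 1 was higher, miR-223 by 0.18 (SE 0.21), and 4 were lower, the lowest miR-150 at -0.14 (SE 0.13). The sums of the 5 were 7.43 to 8.85 against 7.07 to 9.04. The 3 erythroid miRNAs miR-451, miR-144 and miR-486 differed by -0.20 (SE 0.27), -0.27 (SE 0.25) and -0.25 (SE 0.23), with sums of 21.7 to 30.6 against 19.7 to 46.9. Of 5 striated muscle miRNAs 3 were tested, miR-1 at -0.77 (SE 0.91), miR-133a at -0.75 (SE 0.90) and miR-133b at -0.74 (SE 0.90), with sums over the list of 0.258 to 3.01 against 0.327 to 1.85. miR-208a and miR-499 of that list were detected on 0 arrays. The smooth muscle miR-143 and miR-145 differed by -0.04 (SE 0.16) and -0.12 (SE 0.20), with sums of 2.02 to 3.27 against 2.19 to 2.81. The liver miR-122 differed by 0.44 (SE 0.99), with signals of 0.0172 to 0.439 against 0.0269 to 0.303. None of these erythroid, muscle or liver differences exceeded its spread between arrays. The part of these cell types in the miR-148a difference was not tested.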

How the data were processed

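Lung RNA was hybridised to 8 one-colour Agilent miRNA arrays. Per the file headers, spot intensity values came from Feature Extraction 10.7.3.1 (Agilent; grid 021828), background-subtracted within each array and not normalized between arrays. The value table deposited by the authors is in log2 units, and how it was made is not stated in the labels or headers. It was matched (r = 1 on every array) by quantile normalization of the log2 median spot signals and a median over a miRNA's spots, and its column medians were 5.41 to 5.43. It served only as an alternative. The labels and headers name no genome build for the array design.

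Control and outlier-flagged spots were left out (2.25% to 2.76% of spots per array) and 0 spots were saturated. Each probe's spots were averaged, and a miRNA's probes were then summed. A miRNA was detected where at least 50% of the spots of a probe were well above background. Signals were divided by the array's 75th percentile (of the 240 mouse miRNAs that every array detected), floored at 0.0388 and taken to log2. The 268 miRNAs detected on at least 4 arrays were fitted in R 4.3.3 with limma's lmFit and eBayes (version 3.58.1), with Benjamini-Hochberg adjustment, and the fit was tested on simulated data. SEs of members come from this fit, and those of probes from the 2 groups' SDs. Correlations used exact permutation over all pairings. The number of arrays limits the precision. Named miRNAs are the members, the opposite strand, the 3 most alike per member, those that hold the family seed in the first 9 bases, the methyltransferase list and the cell type markers. The members and lists were chosen with earlier results of these data known. Normexp was run on median spot signals, as mean signals were not in the columns used. Sequences and coordinates are RefSeq's (GRCm38.p6).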

Additional observations from a re-analysis of the deposited data

Results flagged for a closer look

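In 52 groups of 4 arrays the gap between the extreme array and its nearest neighbour, as a share of the group's range, was compared with Dixon's 95% limit. It was exceeded in 3, where chance exceeds it in about 1 of 20 groups and so gives 2.6. None of the 3 was a member of the miR-148 family or a ratio between members. miR-301a on Printex 90 replicate 1 was low, with a log2 relative signal of -1.99 (next lowest -1.75, gap 0.874 of the range). That array also had the lowest miR-148b, for which miR-301a was the most alike miRNA. miR-674* was high on vehicle control replicate 1 (-3.18, with the next at -3.24, a gap of 0.923). miR-126-3p on vehicle control replicate 2 was low (5.2, next 5.38, gap 0.893).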

How the results depend on the processing

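Alternatives covered the scaling, background, probe summary, floor, the authors' table, the detection filter, the spread model and each array left out. Leaving out arrays for the correlations was added after the data were seen. The number of miRNAs called by limma stayed 0 in 19 of 20 alternatives, and leaving out 1 array gave 0 to 3. The 3 came without Printex 90 replicate 3 and were miR-135b, miR-146b and miR-21, none of them a member. The log2 difference ran from 0.154 to 0.235 for miR-148a, -0.014 to 0.067 for miR-148b and -0.058 to 0.004 for miR-152 with 1 array left out. With no scaling miR-152 moved to -0.091, more than its within-group SD. The replicate block cannot move a difference in this balanced design (0.199, 0.014 and -0.02 with it). With it the SE of miR-148a went from 0.06 to 0.044 and 0 miRNAs were called, while 12 had an unadjusted limma p under 0.05. Deviations of same-numbered arrays correlated at r from -0.47 to 0.44 over the 4 numbers, and 1 of 8 arrays correlated best with its own number, so the numbers were not taken as pairs.

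The correlations depended on the scaling. miR-152 with miR-148b reached r = 0.88 with the percentile over all mouse miRNAs (exact permutation adjusted p = 0.0211), 0.93 with no scaling (adjusted p = 0.000967) and 0.88 in the authors' table (adjusted p = 0.00938). miR-148a with miR-148b reached 0.75 with no scaling (adjusted p = 0.0477). miR-148a with miR-152 was -0.011 with the scanner's total gene signal. With 1 array left out r ran from -0.049 to 0.991 for miR-148a with miR-148b, -0.141 to 0.27 for miR-148a with miR-152 and 0.305 to 0.767 for miR-152 with miR-148b. Without scaling, signals also follow each array's brightness, so no relation between members is read from r there. Pairs with miR-148a also hold the group difference that entered the choice of the family. The cause of the dependence on scaling was not tested, and other miRNAs were not compared under the settings where pairs passed.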

Other observations

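All 3 members varied more between the Printex 90 arrays than between the controls. The SD of the log2 signal was 0.108 and 0.0239 for miR-148b, 0.0901 and 0.0282 for miR-152, and 0.10 and 0.0727 for miR-148a, in exposed arrays and controls in turn. Of the 240 miRNAs detected on all arrays, 153 (63.7%) had the larger SD after Printex 90, with medians of 0.122 and 0.115. The difference in spread was not tested, as it was noticed in these data.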
